A study of Mus musculus with 9 samples.

Results

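The genes described here lie on mouse chromosome 3 on either side of Cth, the gene disrupted in the knockout livers of this series. They were taken by position and abundance alone: every gene that starts at or after base 147900000 of chromosome 3 (GRCm38) and averages 0.1 FPKM or more across the libraries, with Cth, Acadm and Ifi44 left out by the rule. FPKM is a level per kilobase of exon, divided here by a read number of the library that is not its own read total. Of 54532 genes in the deposited table, 156 lie in this interval, 65 of them have a value above 0 in some library, and 31 meet the rule. Of these 31 genes 20 code for protein, and 25 lie before Cth and 6 after it in the order of the chromosome. The first is Adgrl2 at -9.08 Mb and the last is Wls at 1.95 Mb, both measured from the first base of Cth to the first base of the gene. Just inside the abundance limit were Gm43857 at 0.121 FPKM and Nexn at 0.166 FPKM, and just outside it Gm43572 at 0.0926 FPKM and Gm22136 at 0.0835 FPKM.

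Liver RNA was sequenced in 3 groups with 3 libraries each: Cth knockout mice given plain drinking water, Cth knockout mice given water with 1% betaine, and wild-type (WT) mice given plain drinking water. Both knockout groups carry the disrupted Cth allele. The strain, sex and age of the mice, the way Cth was disrupted and the number of backcrosses are not given in the sources used here. Whether replicates are separate animals is not in the labels, so p-values measure only the spread between these libraries. That spread may be technical, except that WT replicate 3 differs from the other WT libraries in sex-linked RNA (below). WT replicate 3 thus does not come from the same animal as they do.

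A gene targeted in embryonic stem cells of one strain and bred onto another keeps a stretch of donor chromosome around it, because recombination seldom falls close to the selected allele. Genes in that stretch, often called passenger or flanking genes, can differ from WT through the donor's own alleles, and a targeting cassette can also change the transcription of near neighbours. Such differences travel with the allele, so they are looked for in every group that carries it, whatever the treatment. Here they are looked for in the average of both knockout groups minus WT, and betaine-treated minus water-treated knockout holds the allele constant. Loss of Cth travels with the allele too, so its effects and those of linked alleles or a cassette cannot be told apart here. The average can also pass through a change in a single knockout group.

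Some sequence is printed because results below turn on the genes it belongs to: the bases just upstream of Zzz3, the protein-coding gene with the smallest p-value, and the whole stretch between the start sites of Dnajb4 and Fubp1, which point away from each other. Each was read from the RefSeq promoter table for GRCm38, which holds 16 of the 31 genes. They are given 5′ to 3′ on the plus strand, and capitals mark matches to the GC box GGGCGG or to CCAAT on either strand.
Zzz3, chr3:152395223-152395472: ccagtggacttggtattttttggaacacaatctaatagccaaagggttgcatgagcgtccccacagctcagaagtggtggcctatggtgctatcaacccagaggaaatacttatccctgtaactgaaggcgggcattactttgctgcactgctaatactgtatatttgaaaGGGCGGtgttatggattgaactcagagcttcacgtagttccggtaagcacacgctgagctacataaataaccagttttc
Dnajb4 to Fubp1, chr3:152210303-152210421: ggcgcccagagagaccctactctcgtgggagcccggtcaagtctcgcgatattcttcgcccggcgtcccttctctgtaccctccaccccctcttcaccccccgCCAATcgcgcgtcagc

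The 250 bases upstream of Zzz3 are 45.6% G or C, against a median of 52.4% over the windows of that length in the RefSeq table (32851 windows), and hold 6 CG dinucleotides. They hold 1 GGGCGG, which is found in 32.7% of those windows. The other motifs searched on both strands were CCAAT (in 33.8% of windows), TATAAA (12.4%) and the palindrome TGACGTCA (1.55%), and these letters are not in this window. The 119 bases between Dnajb4 and Fubp1 are 66.4% G or C, against a median of 54.6% at that length, with 12 CG dinucleotides and 1 CCAAT, which 21.2% of windows hold. GGGCGG (26.4%), TATAAA (6.3%) and TGACGTCA (1.24%) are not among these letters.

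Cth itself was at 0.583, 0.278 and 0.770 FPKM in the 3 Cth knockout libraries, 0.319, 0.309 and 0.781 FPKM in the 3 betaine-treated knockout libraries, and 285.4, 256.6 and 219.0 FPKM in WT. Every library thus matched its genotype label. Read totals recovered from the FPKM ran from 15183237 to 17471489 per library. The read number that the deposited FPKM divide by was 0.890 to 0.958 of that total in Cth knockout, 0.991 to 1.13 in betaine-treated knockout and 0.975 to 1.04 in WT, and the FPKM of a library summed to 373773 to 584197. With that read number, a floor of 3 reads on 1 kb of exon stands at 0.162 to 0.222 FPKM, for counting error alone. In WT replicate 3, unlike the other 8 libraries, the female-specific RNA Xist was at 26.6 FPKM and genes of the Y chromosome (Uty, Kdm5d, Eif2s3y and Ddx3y) were at 0, so results that rest on it are given with and without it.

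With all libraries and the FPKM as deposited, the flanking genes passed the test in about the same proportion as genes elsewhere. The test was limma on log2(FPKM + 0.5), fitted across the 11852 genes that averaged 0.5 FPKM or more, which 21 of the 31 flanking genes reached. In both knockout groups minus WT, 6 of the 21 passed an adjusted p of 0.05, against a background of 24.7 percent over all genes tested. Only Rpsa-ps10 of the 6 was higher in the knockout groups (background 12.1 percent), and Zzz3, Usp33, Adgrl2, Adgrl4 and Gm43314 were lower (background 12.6 percent). Gm43314 lies inside the Cth gene and passed the abundance filter only through its WT values, so it had to differ. Without Gm43314 the count was 5 of 20, or 25 percent, and without the pseudogene Rpsa-ps10 as well it was 4 of 19, or 21.1 percent. Without WT replicate 3 the count was 2 of 20, Zzz3 and Rpsa-ps10, against 19.4 percent of all genes. It was 3 without WT replicate 1 (12.4 percent of all genes) and 3 without Cth knockout replicate 2 (14.7 percent) or 3 (18 percent). The genome-wide calls were 1437 higher and 1488 lower, or 746 higher and 2458 lower with FPKM rescaled to a common sum per library. That scaling moves the median gene by -0.20. With it 9 of 21 flanking genes were called, against 27 percent of all genes.

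Absolute sizes were also close to those elsewhere. The median absolute log2 difference was 0.33 over the 21 flanking genes and 0.30 over all genes tested, and the median signed difference was -0.04 over the flanking genes and 0.01 over all genes. Among protein-coding genes 4 of 15 flanking genes passed, or 26.7 percent, against 26.2 percent of all protein-coding genes. The signed differences of these 15 leaned lower, with 10 negative and 5 positive. Their median was -0.27, against -0.006 over all protein-coding genes. Their median exon length was 8765 bases, against 3798 for all genes tested, and the part of length in this lean was not tested. In the 10 Mb of chromosome 3 just before the interval 11 of 43 genes passed, or 25.6 percent. The share was 24.4 percent over the rest of chromosome 3 and 24.7 percent over the other chromosomes, and single chromosomes ran from 22.2 percent on chromosome 17 to 27.2 percent on chromosome 9. These shares are descriptions, and the difference between flanking genes and other genes was not tested.

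**Figure D1:**
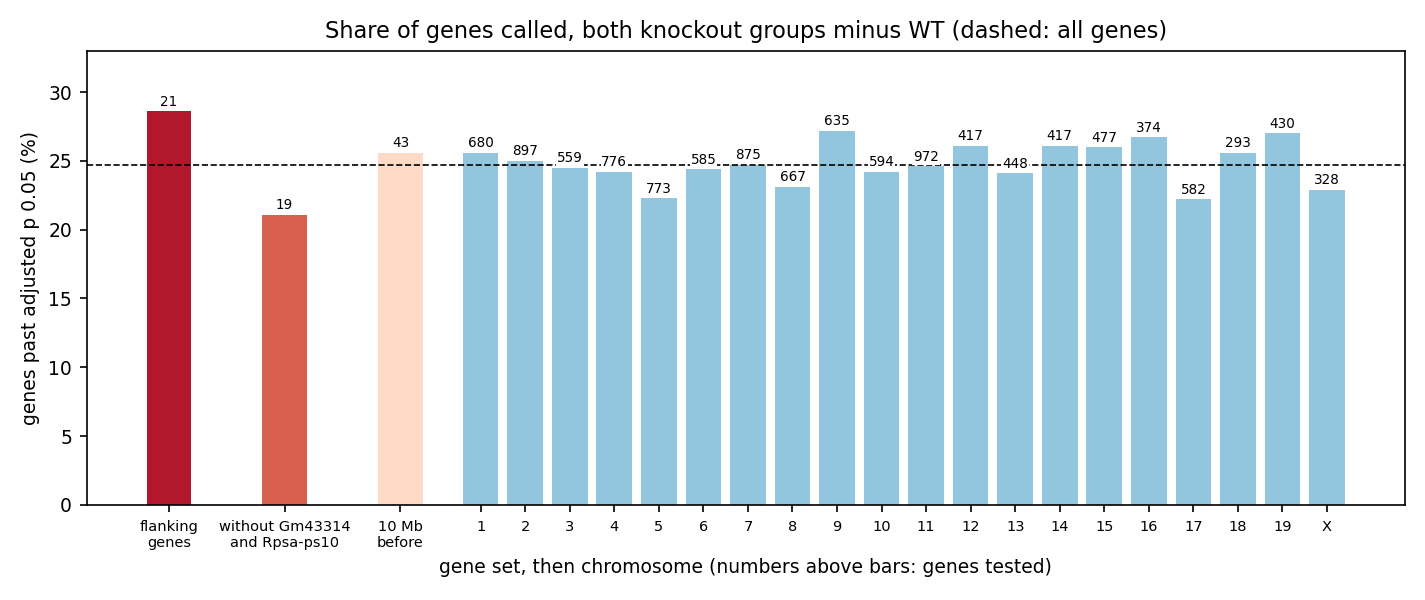
Share of genes past an adjusted p of 0.05 for both knockout groups minus WT (y axis, percent) in the flanking genes, in the flanking genes without Gm43314 and Rpsa-ps10, in the 10 Mb before the interval and on each chromosome, with the number of genes tested above each bar and the share of all genes as a dashed line. The flanking genes stand at 28.6 percent, or 21.1 percent without Gm43314 and Rpsa-ps10, around the 24.7 percent of all genes.

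By distance, with 24.7 percent of all genes as the background, the counts were small in each class. Of the 7 tested genes under 2 Mb from Cth only Gm43314 passed, and of the 4 genes at 2 to 5 Mb none did. Of the 10 genes over 5 Mb away 5 passed, which are Rpsa-ps10, Adgrl2, Adgrl4, Usp33 and Zzz3. This split depends on the setting. Without WT replicate 3 only Rpsa-ps10 and Zzz3 passed, against 19.4 percent of all genes. With the length trend removed the calls were Rpsa-ps10, Adgrl4 and Zzz3 over 5 Mb away, and Cryz, Srsf11 and Gm43314 nearer, against 17.9 percent of all genes. The difference between distance classes was not tested. The nearest tested protein-coding genes on either side, Zranb2 at -0.36 Mb and Ankrd13c at 0.05 Mb, did not pass, with adjusted p = 0.117 and 0.123 in limma. At p under 0.05 without adjustment there were 11 of 21 flanking genes, these included, against 38.9 percent of all genes.

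**Figure D2:**
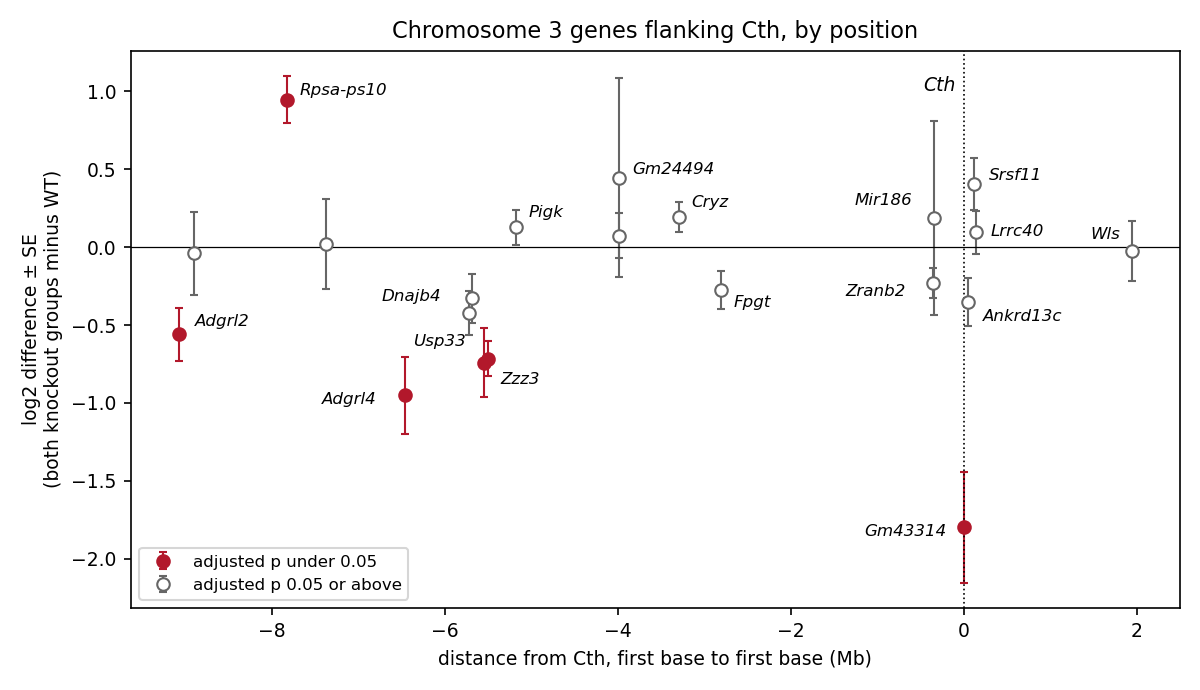
The log2 difference of both knockout groups minus WT (y axis, bars ± SE of the fit over 9 libraries) against distance from Cth in Mb (x axis) for the 21 flanking genes tested, with filled points for an adjusted p under 0.05. The filled points lie over 5 Mb before Cth, apart from Gm43314 within the span of Cth.

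Among the genes for RNA and DNA factors, Zzz3 was lower in both knockout groups. It encodes a zinc finger subunit of the ATAC histone acetyltransferase complex and lies at chr3:152395473-152462826 on the plus strand, -5.50 Mb from Cth. Zzz3 was at 1.39, 1.40 and 1.15 FPKM in Cth knockout livers, 1.14, 1.37 and 1.15 FPKM in betaine-treated knockout livers, and 2.43, 2.50 and 2.25 FPKM in WT. All 6 knockout libraries lay below all 3 WT libraries, and the ranges of the knockout groups overlapped. The log2 difference was -0.72 ± 0.11 (SE) for both knockout groups minus WT, with adjusted p = 0.00494 in limma. It was -0.68 ± 0.13 (adjusted p = 0.00891) for Cth knockout minus WT and -0.75 ± 0.13 (adjusted p = 0.0106) for betaine-treated knockout minus WT, and these comparisons share the WT libraries. Between the knockout groups the difference was -0.08 ± 0.13 (adjusted p = 0.756).

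Zzz3 passed the threshold in 22 of 22 alternative settings for both knockout groups minus WT, with adjusted p between 0.00249 and 0.0420. It has 11499 bases of exon, and long genes as a class were lower in the knockout groups: among the 3947 tested genes with over 5245 bases of exon, 24.2% passed as lower and 4.08% as higher, with a median log2 difference of -0.20. Of the 21 flanking genes tested, 12 are this long, and their median exon length was 6282 bases against 3798 for all genes tested. With each library's trend with exon length removed, the Zzz3 difference was -0.41 (adjusted p = 0.0410) in both knockout groups minus WT. For Cth knockout alone minus WT it was then -0.31 and did not pass (adjusted p = 0.142).

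Fubp1 encodes a single-stranded DNA binding protein known from control of Myc, and was at 1.23, 1.36 and 1.82 FPKM in Cth knockout, 1.10, 1.32 and 1.72 FPKM in betaine-treated knockout and 1.97, 2.19 and 1.56 FPKM in WT. The groups overlapped, through WT replicate 3, and the difference of -0.33 ± 0.16 did not pass (adjusted p = 0.154). Zranb2, a zinc finger splicing regulator, was at 4.29, 4.67 and 4.91 FPKM in Cth knockout, 4.32, 4.20 and 5.03 FPKM in betaine-treated knockout and 5.58, 5.34 and 5.39 FPKM in WT. Its 6 knockout libraries all lay below WT, but by little: the log2 difference was -0.23 ± 0.10. Tyw3, of wybutosine synthesis in transfer RNA, averaged 0.217 FPKM in Cth knockout, 0.321 FPKM in betaine-treated knockout and 0.208 FPKM in WT, below the abundance tested.

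Srsf11, an SR-type splicing factor at 0.12 Mb from Cth, was the one near gene besides Gm43314 to pass in any comparison with WT. It was at 5.85, 8.86 and 9.76 FPKM in Cth knockout livers, 5.86, 4.79 and 4.96 FPKM in betaine-treated knockout livers and 4.68, 4.07 and 5.57 FPKM in WT. Every Cth knockout library on water lay above every WT library, while the betaine-treated libraries overlapped WT. In Cth knockout minus WT it rose by 0.70 ± 0.19 on the log2 scale (adjusted p = 0.0289 in limma), in a comparison where 7 of 21 flanking genes passed against 25.6 percent of all genes. In betaine-treated knockout minus WT the difference was 0.12 ± 0.19 (adjusted p = 0.714), and betaine-treated minus water-treated knockout gave -0.58 ± 0.19 (adjusted p = 0.139). The rise was lost when FPKM were rescaled to a common sum per library, at 0.32 (adjusted p = 0.304), a scaling that moves the median gene by -0.36 in this comparison. At the deposited scaling it passed in 5 of the 9 fits that each left out 1 library, and was lost without Cth knockout replicate 2 (adjusted p = 0.105) or 3 (adjusted p = 0.0979) and without WT replicate 1 (adjusted p = 0.0738) or 2 (adjusted p = 0.0767).

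**Figure D3:**
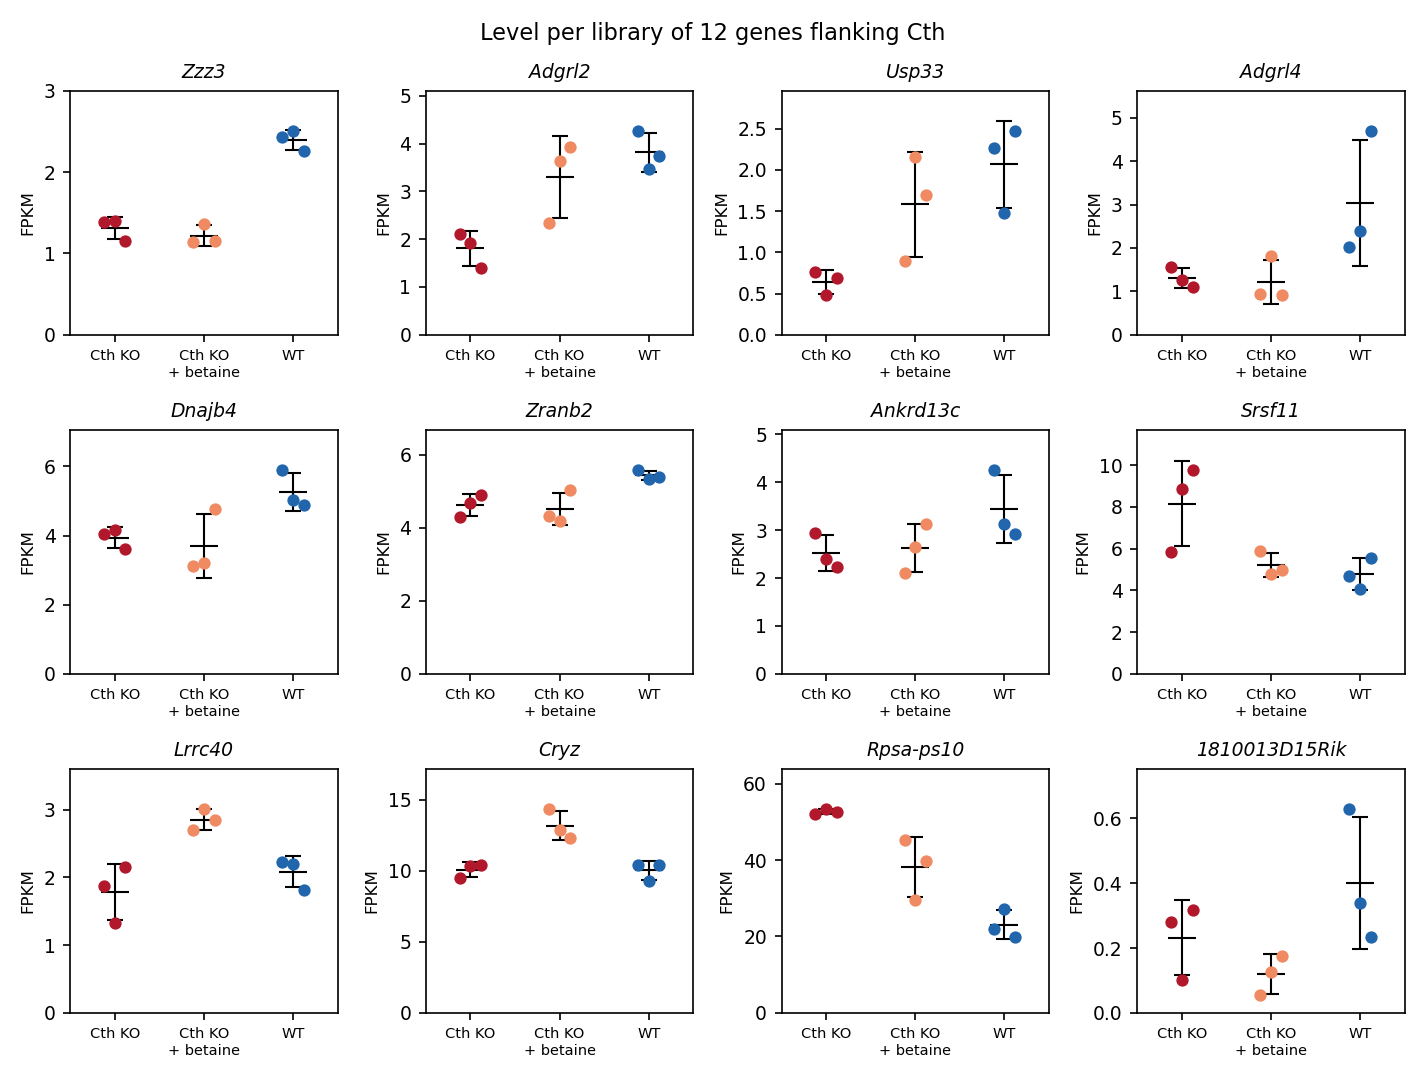
FPKM per library (y axis) of 12 flanking genes in Cth knockout, betaine-treated Cth knockout and WT livers (x axis), with points for libraries and black marks for the mean ± SD of 3 libraries. Zzz3 is below WT in all 6 knockout libraries. For Adgrl2 and Usp33 the 3 libraries of the knockout on water are the lowest of the 9, and Srsf11 is highest in 2 of them.

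Both adhesion receptor genes of the interval passed as lower in the average of both knockout groups minus WT, as 12.6 percent of all genes did. Neither call held in every fit that left out 1 library. Adgrl2 encodes latrophilin 2, an adhesion G protein-coupled receptor. It was at 2.11, 1.91 and 1.40 FPKM in Cth knockout, 2.33, 3.63 and 3.94 FPKM in betaine-treated knockout and 4.26, 3.46 and 3.74 FPKM in WT. The 3 water-treated knockout libraries lay below all others, and 2 of the 3 betaine-treated libraries lay within the WT range. The log2 difference was -0.56 ± 0.17 for both knockout groups minus WT (adjusted p = 0.0394 in limma), -0.91 ± 0.20 for Cth knockout minus WT (adjusted p = 0.0126) and -0.21 ± 0.20 for betaine-treated knockout minus WT (adjusted p = 0.506). Adgrl2 has 14198 bases of exon, and with the length trend removed neither of the first 2 differences passed, at -0.22 (adjusted p = 0.359) and -0.52 (adjusted p = 0.0833). Of the 9 fits that each left out 1 library, the first difference passed in the 4 without Cth knockout replicate 1 or a betaine-treated replicate. It was lost without Cth knockout replicate 2 or 3 or any WT replicate, with adjusted p up to 0.133.

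Adgrl4 encodes an adhesion receptor of endothelial cells, so in whole liver it reports on a minority of the cells. It was at 1.57, 1.26 and 1.10 FPKM in Cth knockout, 0.945, 1.81 and 0.910 FPKM in betaine-treated knockout and 2.02, 2.40 and 4.69 FPKM in WT. The 6 knockout libraries lay below WT, and WT replicate 3 was highest by far. The log2 difference was -0.95 ± 0.25 for both knockout groups minus WT (adjusted p = 0.0250 in limma). Without WT replicate 3 it was -0.64 and did not pass (adjusted p = 0.0641), and it was just lost (adjusted p = 0.0503 to 0.0531) without Cth knockout replicate 2 or 3 or betaine-treated replicate 1 or 3. It was -0.90 ± 0.29 for Cth knockout minus WT (adjusted p = 0.0472), a call held in 2 of the 9 fits that each left out 1 library, those without betaine-treated replicate 2 or WT replicate 1. Without WT replicate 3 it was -0.59 (adjusted p = 0.102), and with the length trend removed -0.77 (adjusted p = 0.0824). It was -1.0 ± 0.29 for betaine-treated knockout minus WT (adjusted p = 0.0533). The summed level of 5 sinusoidal endothelial markers (Stab2, Clec4g, Lyve1, Kdr and Pecam1, none of them at 0) was 19.0 to 24.5 FPKM in Cth knockout, 15.3 to 24.3 FPKM in betaine-treated knockout and 24.6 to 42.2 FPKM in WT, with 42.2 FPKM in WT replicate 3. The part of these markers in the Adgrl4 difference was not tested. In bulk tissue fewer cells of a type and less RNA per cell cannot be told apart.

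Of the 6 tested genes for protein and membrane traffic, modification and folding, only Usp33 passed, or 16.7 percent against 24.7 percent of all genes. Usp33, a deubiquitinating enzyme gene next to Zzz3, was at 0.757, 0.481 and 0.694 FPKM in Cth knockout, 0.890, 2.16 and 1.69 FPKM in betaine-treated knockout and 2.26, 1.47 and 2.47 FPKM in WT. As with Adgrl2, the water-treated knockout lay below all other libraries, and betaine-treated replicates 2 and 3 reached the WT range. The log2 difference was -0.74 ± 0.22 for both knockout groups minus WT (adjusted p = 0.0375 in limma), and -1.15 ± 0.26 for Cth knockout minus WT (adjusted p = 0.0137). In betaine-treated knockout minus WT it was -0.33 ± 0.26 (adjusted p = 0.409). The difference for both groups was lost with the length trend removed (-0.47, adjusted p = 0.105). Of the 9 fits that each left out 1 library it passed in the 3 without betaine-treated replicate 1 or 2 or WT replicate 2, and in the others adjusted p reached 0.119. Usp33 shares 1478 of its 9675 exon bases with Gm43857 on the opposite strand, and no strand is given for the counting, so reads there cannot be assigned to either gene.

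Dnajb4, which encodes an HSP40-type co-chaperone, was at 4.05, 4.16 and 3.60 FPKM in Cth knockout, 3.12, 3.20 and 4.76 FPKM in betaine-treated knockout and 5.89, 5.03 and 4.87 FPKM in WT. Its 6 knockout libraries lay below WT, with betaine-treated replicate 3 only just below, and its log2 difference of -0.43 ± 0.14 missed the threshold (adjusted p = 0.0537). Dnajb4 and Fubp1, whose shared start region is printed above, thus had negative differences that did not pass. Ankrd13c, an ankyrin repeat protein of the endoplasmic reticulum and the nearest protein-coding neighbour of Cth, was at 2.94, 2.39 and 2.23 FPKM in Cth knockout, 2.11, 2.66 and 3.13 FPKM in betaine-treated knockout and 4.25, 3.14 and 2.93 FPKM in WT. Cth knockout replicate 1 and betaine-treated replicate 3 lay above WT replicate 3, and the difference of -0.35 ± 0.15 did not pass.

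The remaining genes of this class had overlapping groups. Pigk, the catalytic subunit of the GPI transamidase, averaged 4.42 ± 0.48 FPKM in Cth knockout, 4.39 ± 0.44 FPKM in betaine-treated knockout and 3.99 ± 0.35 FPKM in WT (SD, n = 3 each). Rabggtb, a subunit of the Rab geranylgeranyl transferase, averaged 17.9 ± 1.3 FPKM in Cth knockout, 14.0 ± 1.8 FPKM in betaine-treated knockout and 15.2 ± 3.2 FPKM in WT. Wls, the carrier that takes Wnt proteins to the cell surface and the farthest gene after Cth, averaged 0.594 ± 0.17 FPKM in Cth knockout, 0.546 ± 0.019 FPKM in betaine-treated knockout and 0.608 ± 0.29 FPKM in WT. Their log2 differences for both knockout groups minus WT were 0.13 ± 0.11 for Pigk, 0.07 ± 0.15 for Rabggtb and -0.02 ± 0.19 for Wls, with adjusted p of 0.429 or more. Miga1, for a mitochondrial fusion factor, was at 0.184 to 0.311 FPKM in the 6 knockout libraries and 0.180 to 0.333 FPKM in WT.

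Neither of the 2 tested enzyme genes passed in both knockout groups minus WT, against 24.7 percent of all genes. Cryz, the quinone oxidoreductase zeta-crystallin, was at 9.48, 10.3 and 10.4 FPKM in Cth knockout, 14.3, 12.9 and 12.3 FPKM in betaine-treated knockout and 10.4, 9.26 and 10.4 FPKM in WT. The 3 betaine-treated libraries lay above the other 6, with no adjusted call in the main fit: 0.37 ± 0.11 against water-treated knockout (adjusted p = 0.121) and 0.38 ± 0.11 against WT (adjusted p = 0.0592). Against WT, betaine-treated Cryz passed with the length trend removed, both with WT replicate 3 and without it. Against water-treated knockout it passed with FPKM rescaled to a common sum (adjusted p = 0.0281 in limma), a scaling that moves the median gene by 0.33 in that comparison. With the length trend removed, Cryz passed in both knockout groups minus WT at 0.36 (adjusted p = 0.0390; -0.034, adjusted p = 0.861, with FPKM rescaled to a common sum), as did Srsf11 at 0.65 (adjusted p = 0.0317). Fpgt, which makes GDP-fucose, was at 1.99, 1.57 and 2.05 FPKM in Cth knockout, 2.12, 2.06 and 1.81 FPKM in betaine-treated knockout and 2.62, 2.11 and 2.61 FPKM in WT. Its groups overlapped at WT replicate 2, and the difference was -0.27 ± 0.12 (adjusted p = 0.125). The sialyltransferase gene St6galnac3 was at 0.0823 to 0.336 FPKM in the knockout libraries and 0.102 to 0.166 FPKM in WT, too low to be tested.

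Lrrc40, a leucine-rich repeat gene, and Srsf11 are transcribed away from each other from start sites with 22 bases between them. Lrrc40 was at 1.88, 1.33 and 2.15 FPKM in Cth knockout, 2.70, 3.01 and 2.86 FPKM in betaine-treated knockout and 2.24, 2.19 and 1.82 FPKM in WT. The betaine-treated libraries were the highest of the 9 for Lrrc40, while for Srsf11 the highest were Cth knockout replicates 3 and 2. Betaine-treated minus water-treated knockout gave 0.57 ± 0.16 for Lrrc40 (adjusted p = 0.106), opposite in sign to the -0.58 of Srsf11, and neither passed. Lrriq3, which starts 30 bases from Fpgt, was at 0.343, 0.142 and 0.244 FPKM in Cth knockout, 0.263, 0.283 and 0.439 FPKM in betaine-treated knockout and 0.218, 0.158 and 0.234 FPKM in WT, with overlapping groups. Nexn, for an actin-binding protein of muscle, was at 0.0621 to 0.176 FPKM in the knockout libraries and 0.171 to 0.376 FPKM in WT.

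The transcripts that touch the Cth locus itself were scarce. Gm43314, a predicted gene model at chr3:157894961-157897191, lies within the span of Cth on the same strand without sharing an exon base with it. It had 1, 0 and 3 reads in Cth knockout, 0, 3 and 0 reads in betaine-treated knockout and 63, 13 and 106 reads in WT. All knockout libraries were at or near 0, as Cth was, and reads of unspliced Cth RNA and of Gm43314 cannot be told apart. Without WT replicate 1 or 3 Gm43314 no longer reached the limit of 0.5 FPKM. The antisense gene 1810013D15Rik starts 142 bases from Cth and runs the other way. It had 8, 3 and 10 reads in Cth knockout, 2, 5 and 6 reads in betaine-treated knockout and 21, 11 and 9 reads in WT, so the groups overlapped at WT replicate 3. In a fit that kept genes down to 0.1 FPKM its log2 difference was -0.40 ± 0.18 (adjusted p = 0.153 in limma). The antisense gene 4930592C13Rik, which starts 69 bases from Zranb2, had 4, 4 and 5 reads in Cth knockout, 6, 2 and 10 reads in betaine-treated knockout and 1, 2 and 0 reads in WT, with 0.72 ± 0.23 in that fit (adjusted p = 0.0623). None of the 10 genes that reached only the lower limit passed in it, against 15.7 percent of all genes in that fit. That share takes in the more abundant genes too, and the share among genes as low as these 10 is not given here.

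The pseudogene Rpsa-ps10 was the only flanking gene that passed as higher in each knockout group minus WT. It is a processed copy of Rpsa, which encodes a protein of the small ribosomal subunit and lies on chromosome 9. Rpsa-ps10 was at 52.0, 53.4 and 52.7 FPKM in Cth knockout, 45.2, 29.6 and 39.7 FPKM in betaine-treated knockout and 22.0, 27.3 and 19.9 FPKM in WT. All knockout libraries lay above WT, and the water-treated ones above the betaine-treated ones. The log2 difference was 0.95 ± 0.15 for both knockout groups minus WT (adjusted p = 0.00528 in limma), 1.19 ± 0.17 for Cth knockout minus WT (adjusted p = 0.00572) and 0.71 ± 0.17 for betaine-treated knockout minus WT (adjusted p = 0.0336). The last passed in only 2 of the 9 fits that each left out 1 library, those without betaine-treated replicate 2 or WT replicate 2, and adjusted p reached 0.109 in the others.

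The parent gene moved with it. Rpsa was at 246.3, 249.6 and 234.9 FPKM in Cth knockout, 209.2, 147.7 and 196.0 FPKM in betaine-treated knockout and 124.7, 134.3 and 100.4 FPKM in WT, a log2 difference of 0.82 ± 0.15 for both knockout groups minus WT (adjusted p = 0.00716). As a percent of Rpsa, the pseudogene was at 21.1, 21.4 and 22.4 in Cth knockout, 21.6, 20.1 and 20.3 in betaine-treated knockout and 17.7, 20.3 and 19.8 in WT. Betaine-treated libraries overlap both other groups in this share, and the 3 Cth knockout libraries on water lie above WT. How reads were split between near-identical copies is not given in the sources used here, so the level of Rpsa-ps10 is uncertain.

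**Figure D4:**
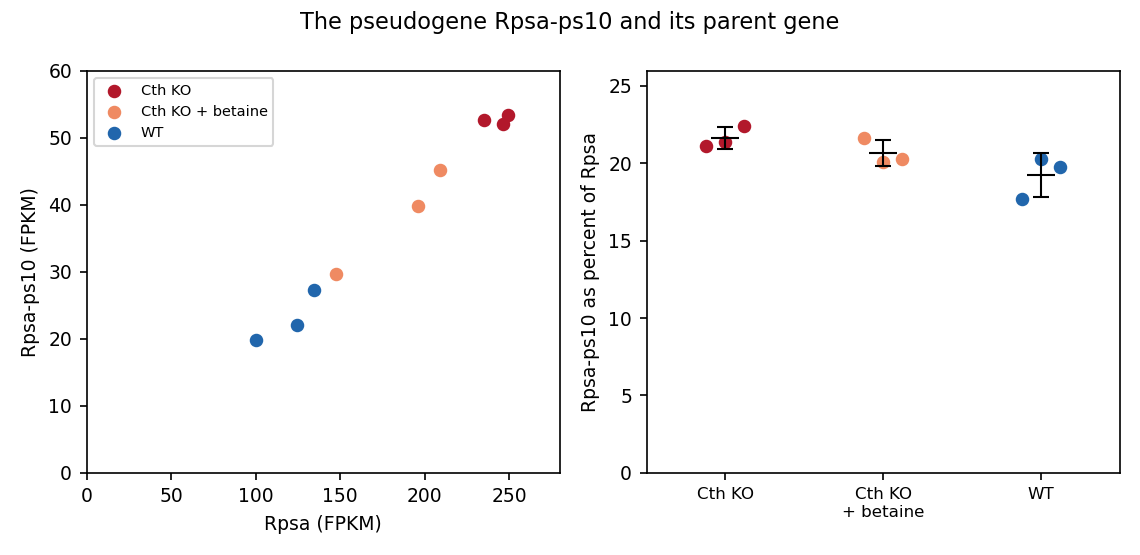
Left, Rpsa-ps10 against its parent Rpsa, both in FPKM, with 1 point per library. Right, Rpsa-ps10 as a percent of Rpsa in Cth knockout, betaine-treated Cth knockout and WT, with marks for the mean ± SD of 3 libraries. The pseudogene's level follows that of the parent across the 9 libraries, between 17.7 and 22.4 percent of it.

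The other gene models did not separate the groups. Gm43573, antisense to Adgrl2, averaged 0.742 ± 0.64 FPKM in Cth knockout, 0.578 ± 0.15 FPKM in betaine-treated knockout and 0.641 ± 0.073 FPKM in WT. The pseudogene Gm6439 averaged 0.423 ± 0.44 FPKM in Cth knockout, 0.624 ± 0.27 FPKM in betaine-treated knockout and 0.472 ± 0.18 FPKM in WT. Mir186, the hairpin in an intron of Zranb2, had 3, 8 and 1 reads in Cth knockout, 2, 5 and 5 reads in betaine-treated knockout and 1, 6 and 4 reads in WT. Such libraries of poly(A) RNA do not measure the mature miRNA. Gm24494, a snoRNA model in an intron of Rabggtb, was the only flanking gene with under 30 reads in all. Gm43857, Gm43858 and Gm43859, models beside or inside Usp33, were at 0.0212 to 0.634 FPKM over the 9 libraries.

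With the allele held constant, 0 of the 21 genes passed in betaine-treated minus water-treated Cth knockout, against 0.0422 percent of all genes tested, by limma on FPKM. By limma-voom on recovered reads 0 of the 21 and 0 of all genes passed. At p under 0.05 without adjustment there were 6 of 21, against 22.5 percent of all genes. Without betaine-treated replicate 1 the calls were 882 over all genes, or 7.42 percent, and 2 of 21 flanking genes, Adgrl2 and Usp33. With FPKM rescaled to a common sum they were 1754 over all genes, or 14.8 percent, and 4 flanking genes, so the near-zero count depends on the scaling and on that library. In betaine-treated knockout minus WT 3 passed, which are Zzz3, Rpsa-ps10 and Gm43314, against 11.7 percent of all genes. In Cth knockout minus WT the same 3 passed, with Usp33, Adgrl2, Adgrl4 and Srsf11. Zzz3 was thus the one protein-coding flanking gene that passed in each comparison with WT.

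Counted library by library, 6 of the 31 flanking genes had 6 knockout libraries that did not overlap the 3 WT libraries, against 16.9 percent of all genes that averaged 0.1 FPKM or more. Rpsa-ps10 was higher, as 7.86 percent of those genes were, and Zzz3, Dnajb4, Adgrl4, Zranb2 and Gm43314 were lower, as 9.01 percent were. All 6 were among the 21 genes tested, where the background is 21.3 percent. Without Gm43314, which had to differ, 5 remain. The count was 10 of 31 without WT replicate 2 and 11 of 31 without WT replicate 3, where 23.3 and 25.3 percent of all genes did not overlap. With the length trend removed the genes changed: Dnajb4 and Zranb2 overlapped WT, and 1810013D15Rik, Cryz and St6galnac3 did not. The log2 differences for both knockout groups minus WT were then -0.17 for Dnajb4 and -0.04 for Zranb2.

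**Figure D5:**
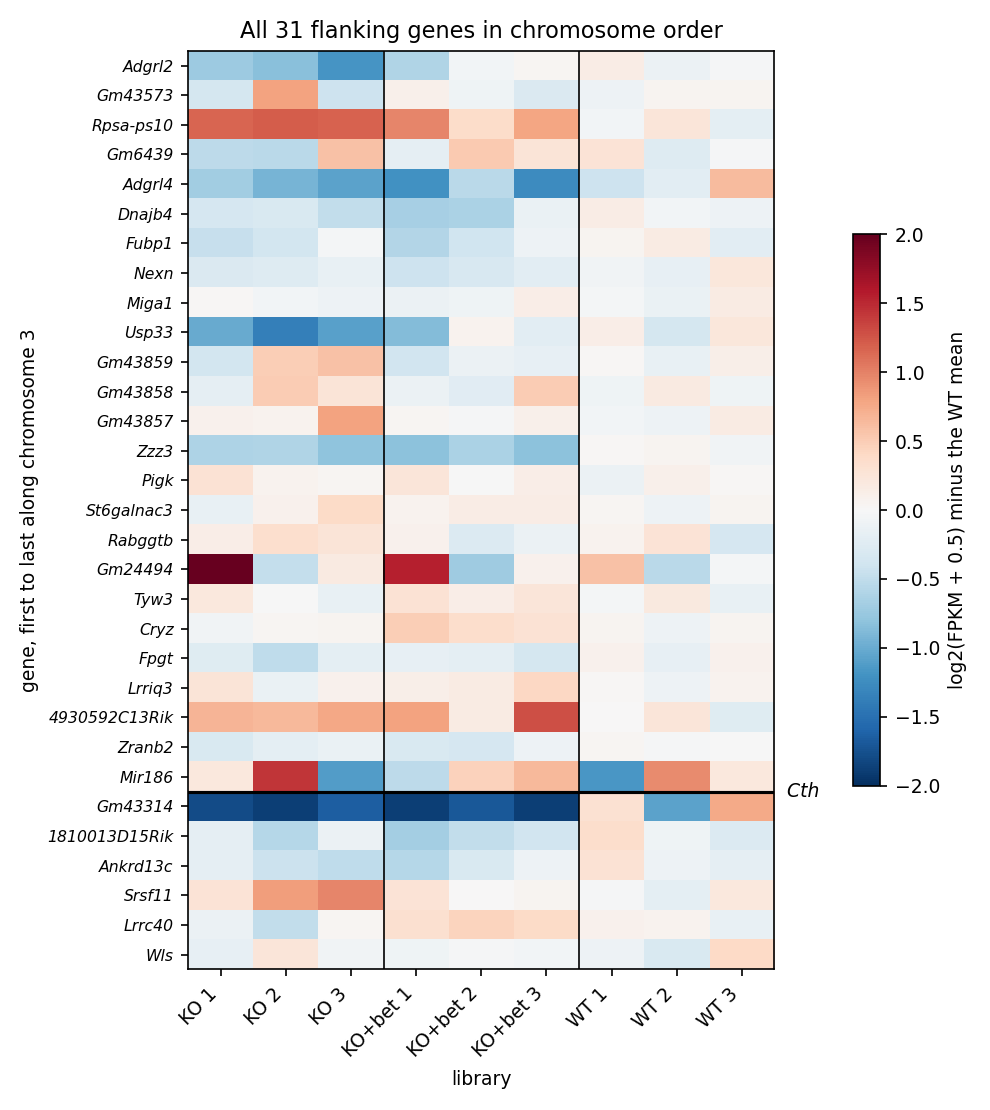
log2(FPKM + 0.5) of each of the 31 flanking genes (y axis, in chromosome order, with the place of Cth marked) in the 9 libraries (x axis), as the difference from the WT mean of that gene, red for higher and blue for lower. Rpsa-ps10, Adgrl4, Zzz3 and Gm43314 have one colour across the 6 knockout libraries. So do other genes, Dnajb4, Zranb2, Ankrd13c and 4930592C13Rik among them. Adgrl2 and Usp33 are palest in betaine-treated replicates 2 and 3.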

How the data were processed

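The authors deposited FPKM values per gene for 9 mouse liver RNA-seq libraries, and the deposited FPKM table was the only file used. Per the labels' protocols, poly(A) RNA was made into libraries with an NEBNext Ultra kit. The submitters' processing notes name build mm10 and, among tools, DESeq2 1.16.1, HISAT2 2.0.5 and featureCounts 1.5.0-p3, per the labels. Their roles, the annotation and the strand used in counting are not given in the sources used here. Genes were placed with GENCODE M21 (GRCm38, the assembly of mm10), which matched 54409 of 54532 genes.

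With union exon lengths from that annotation, 98.3% to 98.6% of low values (up to 20 reads) came within 0.05 of a whole number of reads, and reads were recovered from the FPKM this way. The FPKM were used as deposited for the main test. The 11852 genes that averaged 0.5 FPKM or more were tested as log2(FPKM + 0.5) with limma 3.58.1 in R 4.3.3 (lmFit and eBayes, eBayes with a mean-variance trend and robust estimation), 1 mean per group. Fold changes on this scale understate the change of low genes. Contrasts were the average of both knockout groups minus WT, each knockout group minus WT, and betaine-treated minus water-treated knockout. Tests were two-sided, with Benjamini-Hochberg adjustment over all genes within a contrast and a threshold of 0.05. No test compared the flanking genes as a set with other genes. Floors cover counting error only, and ± values are the SE of the fit or, where stated, the SD of the libraries of a group.

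Per-library values were given for flanking genes past the threshold in both knockout groups minus WT, for those whose 6 knockout libraries did not overlap WT, and for the 3 nearest protein-coding genes on each side of Cth. Values of Fubp1, Cryz, 1810013D15Rik, 4930592C13Rik and Mir186 were added after they were seen. The members and lists were chosen with earlier results of these data known. The script was tested on simulated data. Alternatives covered the replicate block, pseudocount, filter, scaling, length trend, variance model and left-out libraries. The fits by limma-voom on recovered reads, and without both the length trend and WT replicate 3, were added after seeing the data. Tables and figures used Python 3.11.15, numpy 2.4.6, pandas 2.3.3 and matplotlib 3.10.9.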

Additional observations from a re-analysis of the deposited data

How the results depend on the processing

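The count of flanking genes past the threshold in both knockout groups minus WT was 6 as reported. It was 3 with the replicate number as a block (17.3 percent of all genes), 3 with no filter (6.3 percent) and 3 without the length trend and WT replicate 3 (14.8 percent). Leaving out 1 library at a time it ran from 2 (without WT replicate 3) to 6, and was 3 without Cth knockout replicate 2 or 3 or WT replicate 1. In the reported fit, 1 of the 11 tested genes within 5 Mb of Cth was called, Gm43314, which had to differ (24.7 percent of all genes). In Cth knockout minus WT the 7 calls became 11 with FPKM rescaled to a common sum, against 36 percent of all genes. That scaling called 588 genes higher and 3674 lower in all. In the reported fit, 2 of the 11 tested genes within 5 Mb of Cth were called, Gm43314 and Srsf11 (25.6 percent of all genes). The 7 calls became 4 without the length trend (17.6 percent), and 2 without it and WT replicate 3 (15.5 percent). When 1 library was left out they ran from 3 (without Cth knockout replicate 2, 7.58 percent of all genes) to 7. In betaine-treated knockout minus WT 1 of the 11 tested genes within 5 Mb of Cth was called in the reported fit, Gm43314 (11.7 percent of all genes). The 3 calls became 1 with no filter (2.09 percent) and 1 with only the groups compared in the fit (2.98 percent), with 1 to 4 when 1 library was left out. The lowest came without betaine-treated replicate 1 (5.31 percent of all genes), WT replicate 1 (4.87 percent) or WT replicate 3 (12 percent). In betaine-treated minus water-treated knockout the 0 calls became 4 with the common sum, which moves the median gene by 0.33 and calls 1681 genes higher and 73 lower in all, and 0 to 2 with 1 library left out, 2 (Adgrl2 and Usp33) without betaine-treated replicate 1. Of the 16 flanking genes within 5 Mb of Cth 2 did not overlap, Gm43314 and Zranb2, against 16.9 percent of all genes that averaged 0.1 FPKM or more. The 6 non-overlapping genes became 6 to 11 when 1 library was left out, 10 without WT replicate 2 and 11 without WT replicate 3. Other alternatives for these counts stayed within 1.5 times the reported value, though not always with the same genes. Among differences of single genes 550 of 642 kept their direction and their side of the threshold, 74 lost the call, 16 gained one and 2 changed sign with the common sum, both in both knockout groups minus WT: Lrrc40 to -0.10 and Cryz to -0.034. The causes were not tested. The replicate numbers did not pair the samples across all groups. Between Cth knockout and WT, same-numbered deviations correlated at 0.0487 to 0.098 and the others at -0.0874 to 0.000786. Same-numbered deviations correlated at -0.124 to -0.0952 between betaine-treated knockout and WT, and at -0.227 to -0.0277 between the knockout groups. Depth limits the 10 flanking genes under 0.5 FPKM, where a library holds few reads, and 3 libraries per group limit the rest.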
